A study of Mus musculus with 4 samples.

Results

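Bone marrow cells lacking Nfkb1 were compared with wild-type cells after 3 days of culture with Flt3 ligand. The comparison takes 2 of the series' 4 libraries, one per genotype, and covers all 26026 genes of the expression table. Of these genes, 11786 had a mean of at least 1 RPKM (reads scaled to gene length and library total) over the 4 libraries and were compared. The submitters describe the cells as BMDC, a common short name for dendritic cells raised from bone marrow. They give the genotypes as Wild-type (C57/B16) and Nfkb1-/- (C57/B16), so the strain label is shared and the labelled difference is the loss of both Nfkb1 alleles. Both cultures received Flt3 ligand in RPMI with serum, 2-mercaptoethanol (2-BME) and antibiotics, with the medium renewed on day 3. The other 2 libraries are the same genotypes at day 5; they share no library with the day 3 pair and are set beside it. The series asks how the NF-kB subunits RelA and p50 act together in this differentiation, and its title names Sod2 and the RelA:p52 dimer. How many mice or cultures each library holds is not given in the sources used here, nor is the design of the deleted allele.

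NF-kB is a family of dimeric transcription factors that wait in the cytoplasm, held by IkB proteins, until a signal triggers the loss of the inhibitor. Nfkb1 encodes p105, which acts as an inhibitor of the IkB type and is also processed to p50, a DNA-binding subunit with no activation domain of its own. Dimers of p50 alone can occupy kB sites without activating them, and p50 paired with RelA or c-Rel activates inflammatory genes in myeloid cells. Flt3 ligand is the cytokine that carries marrow progenitors towards conventional and plasmacytoid dendritic cells, and early cultures still hold many other marrow cells.

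With 1 library per genotype there is no estimate of the spread between cultures, and no test was made. Differences below are log2(RPKM + 1) in the knockout minus the same in wild type, a scale that understates the difference of low genes. A gene is called higher or lower when that difference is at least 1 in size. A ratio of RPKM comes with its exact 95% interval (Clopper-Pearson, from recovered reads), which covers counting error only. The median difference of all 11786 genes was 0.13, not 0, and it was -0.02, 0.05 and 0.04 when the libraries were rescaled by their median ratio, to the same sum of RPKM or to the same reads in listed genes. Reads in listed genes were 70.9% of the 15255070 reads of the wild-type library and 75.8% of the 16215214 reads of the knockout library. List medians are therefore to be read against 0.13.

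The targeted gene was lower in the library labelled knockout but still present. Nfkb1 (NM_008689) measured 74.8 RPKM in wild type against 56.0 RPKM in the knockout, a ratio of 0.749 (0.717 to 0.782). The value is a sum over the gene, and whether the remaining transcripts carry the disruption cannot be read from it. The other 4 subunit genes lay between -0.29 and 0.07. Nfkb2, source of p52, was at 17.7 RPKM in wild type against 14.3 RPKM in the knockout, Rela at 27.9 and 25.2 RPKM, Rel at 14.5 and 11.9 RPKM, and Relb at 13.9 and 14.6 RPKM. Hence the genes for the partners of p50 were all within the size rule at day 3.

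Genes that Flt3 ligand cultures should express were present in both libraries. Flt3, the receptor, was at 29.9 RPKM in wild type against 32.2 RPKM in the knockout. Class II chain H2-Aa was at 651 and 333 RPKM, the integrin Itgax at 18.4 and 11.1 RPKM, and the plasmacytoid lectin Siglech at 23.1 and 11.6 RPKM. Zbtb46, a transcription factor of conventional dendritic cells, was low, at 1.78 and 0.575 RPKM. Neutrophil RNA was abundant as well, with S100a8 at 8077 and 7005 RPKM and Ngp at 5084 and 2835 RPKM, so RNA typical of neutrophils was present beside that of dendritic cells. In such bulk samples fewer cells of a type and less RNA per cell cannot be told apart, and this holds for every marker list below.

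Of the 11786 genes compared, 115 (0.976%) were higher and 104 (0.882%) lower in the knockout. Counts of list members past the rule, here and below, are to be read against these shares. Counts above or below 0 are to be read against the 66.6% of all compared genes that lay above 0. Short RNAs made up 42 of the former and 38 of the latter. A minimum of 20 reads, averaged over the day 3 pair, kept 11125 genes, of which 75 (0.674%) were higher and 66 (0.593%) lower. Rescaling by the median ratio turned this split into 39 higher and 99 lower, the same sum of RPKM gave 48 and 79, and the same reads in listed genes gave 47 and 82. At a size of 0.5 the counts were 1158 higher and 386 lower, while at 1.5 they were 13 and 16 and at 2 they were 1 and 8. Large differences were thus few, and the many small ones were mostly in the upward direction of the all-gene median.

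**Figure D1:**
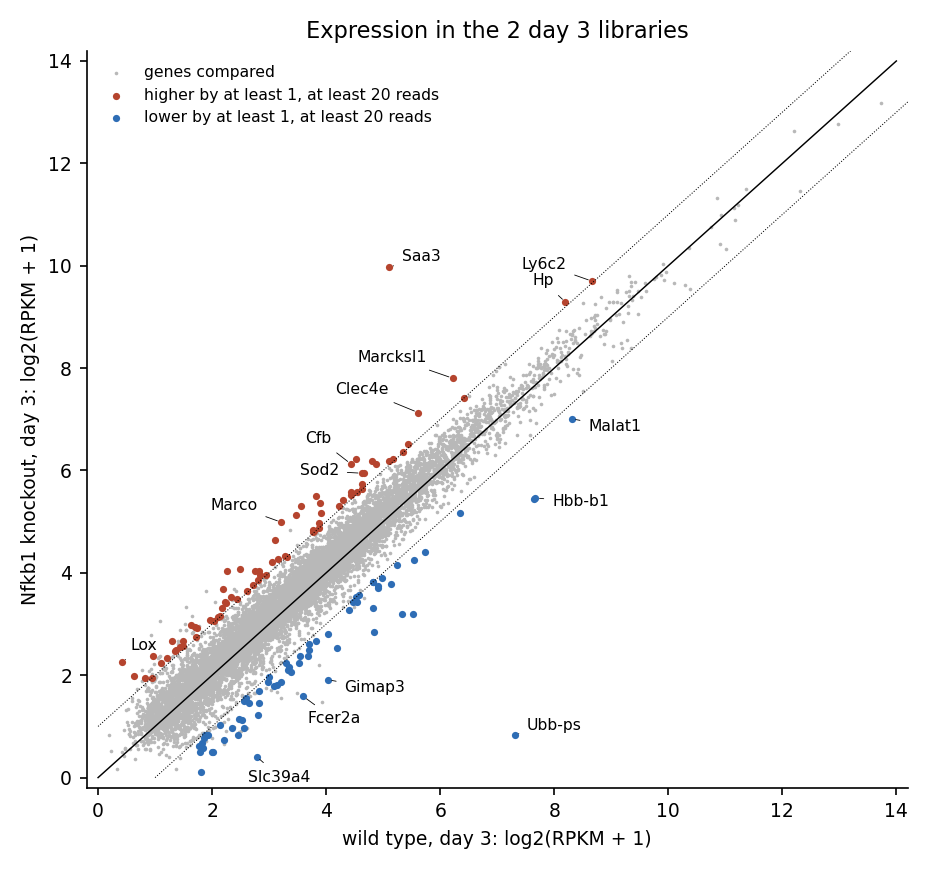
Level of each compared gene in the 2 day 3 libraries, wild type on the x axis and Nfkb1 knockout on the y axis, both as log2(RPKM + 1). The solid line marks equal levels and the dotted lines a difference of 1. Colour marks the 75 genes higher and the 66 lower with at least 20 reads on average. Saa3 lies far above the line, and Ubb-ps far below it.

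The higher genes included single acute phase and complement genes. Saa3, a serum amyloid made by activated macrophages, was at 33.5 RPKM in wild type against 1002 RPKM in the knockout, a ratio of 29.9 (26.5 to 33.9). The related genes Saa1 and Saa2 stood at the value of 1 read in all 4 libraries. Cfb, complement factor B of the alternative pathway, was at 20.6 and 68.9 RPKM, a ratio of 3.33 (3.09 to 3.60). The haemoglobin scavenger haptoglobin, Hp, was already abundant in wild type at 293 RPKM and stood at 625 RPKM in the knockout (1.09, but 0.92 after median ratio rescaling). The acute phase and complement list had 3 of 20 measured members higher and 1 lower, and its median was -0.11, so these genes did not go as a block. Orm1, an acute phase glycoprotein, went the other way at 10.5 and 3.72 RPKM, the complement regulator Cd55 was at -0.97 and the C1q chain C1qa at -0.71. C2, the classical pathway counterpart of Cfb, was under the filter on mean level, at 0.248 and 2.19 RPKM. C3 itself was at 221 and 236 RPKM.

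Receptors that sense microbes and debris held a few higher genes beside many within the rule. Of 38 measured scavenger and pattern recognition receptors, 4 were higher and 0 lower, against 0.976% and 0.882% of all genes. The list median of 0.15 turned to -0.01 under median ratio rescaling. Marco, a macrophage scavenger receptor for bacteria, was at 8.27 RPKM in wild type against 30.8 RPKM in the knockout, a ratio of 3.72 (3.23 to 4.30). Gpr84, a receptor for medium-chain fatty acids, was at 10.1 and 34.2 RPKM. Clec4e, the lectin Mincle, was at 48.0 and 139 RPKM. Tlr2, the receptor for bacterial lipoproteins, was at 42.2 and 90.1 RPKM (1.08, and 0.91 after median ratio rescaling). Cd14, a co-receptor for lipopolysaccharide, lay just under the rule at 0.89. Within the rule, the endosomal receptors were spread from Tlr3 at -0.77 and Tlr9 at -0.57 to Tlr7 at 0.28, and Tlr4, at the surface, was at 0.25.

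Inflammatory genes known as NF-kB targets had a list median above that of all genes, with members on both sides. Of 26 measured, 6 were higher and 1 lower, against 0.976% and 0.882% of all genes. In the list 17 lay above 0, and 17 also after median ratio rescaling, where the shares over all genes were 66.6% and 47.7%. The list median was 0.57 (0.41 to 0.49 under the 3 rescalings). This list was written with earlier results of these libraries known, so its direction is not independent of them. Saa3, given above with the acute phase genes, is also in this list and counts among the 6 higher. Marcksl1, an actin-regulating substrate of protein kinase C, was at 73.7 and 222 RPKM, a ratio of 3.01 (2.86 to 3.18). Acod1, the enzyme that makes itaconate, was at 27.0 and 72.2 RPKM. The cytokine Il1b was at 28.4 and 68.4 RPKM, and Il18, another product of the inflammasome and named from the inflammasome list, at 3.69 and 9.80 RPKM. Tnf was at 17.8 and 38.3 RPKM and Il6 at 0.919 and 2.86 RPKM, and both were under the rule after each of the 3 rescalings. The chemokine Ccl22 stood alone on the lower side, at 7.78 and 2.49 RPKM. Cxcl10 (-0.28), Irf1 (-0.07) and Cd83 (-0.32), which belong to the same list, were not among the higher genes. Most inflammasome parts were also within the rule: of 15 measured, Il1b and Il18 were the 2 higher and 0 were lower, with Nlrp3 at 0.27 and Casp1 at 0.35.

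The regulators of the pathway stayed within the size rule. None of the 24 measured passed the rule, and their median of 0.08 was negative under all 3 rescalings. Tnfaip3, the ubiquitin-editing enzyme A20, had the largest difference at 12.7 and 24.2 RPKM (0.88). Bcl3, an IkB protein that binds p50 in the nucleus, was at 23.01 and 37.9 RPKM (0.70). Nfkbia, which encodes IkBa, was at 92.1 and 114 RPKM. Traf1 (-0.53) and Birc3 (-0.43), known targets of the pathway, lay below 0.

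Sod2, the manganese superoxide dismutase of mitochondria, stood out from the other redox genes. It was at 23.8 RPKM in wild type against 60.7 RPKM in the knockout, on 1387 and 3761 reads, a ratio of 2.55 (2.40 to 2.71). Among 39 measured antioxidant and redox genes it was the only one past the rule, and the list median was 0.18. Sod1, the cytosolic enzyme, was at 238 and 221 RPKM, and catalase (Cat) at 53.1 and 52.8 RPKM. The peroxiredoxins Prdx4 (0.86) and Prdx3 (0.74) and the thioredoxin reductase Txnrd1 (0.75) came next. Interferon-stimulated genes as a list sat at the all-gene median, at 0.13 and negative under median ratio rescaling. Of 50 members 1 was higher, near the share of 0.976% over all genes. That one, the guanylate-binding protein gene Gbp5, was at 7.29 and 17.5 RPKM, beside Gbp3 at 0.90 and Iigp1 at 0.88, while Ifit3 (-0.44) and Oasl2 (-0.30) lay below 0.

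Promoters of higher genes were searched because p50 binds kB sites, and some of those with a match are shown. The RefSeq promoter table (GRCm38.p6, a build other than that of the expression table) gives 250 bases before to 50 after each gene start. The kB consensus, a motif of 10 bases, was searched on both strands over these 300 bases. For Sod2, for Alpk1, which encodes a kinase that senses bacterial sugars, and for Gbp5, the 250 bases before the start are printed 5′ to 3′ on the gene's strand, with the match in capitals.
Sod2, chr17:13007589-13007838, plus strand: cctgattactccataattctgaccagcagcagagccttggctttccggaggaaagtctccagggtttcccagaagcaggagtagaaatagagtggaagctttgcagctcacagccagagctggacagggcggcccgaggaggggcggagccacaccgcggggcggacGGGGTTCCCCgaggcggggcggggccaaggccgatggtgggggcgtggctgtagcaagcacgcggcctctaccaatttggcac
Alpk1, chr3:127780528-127780777, minus strand: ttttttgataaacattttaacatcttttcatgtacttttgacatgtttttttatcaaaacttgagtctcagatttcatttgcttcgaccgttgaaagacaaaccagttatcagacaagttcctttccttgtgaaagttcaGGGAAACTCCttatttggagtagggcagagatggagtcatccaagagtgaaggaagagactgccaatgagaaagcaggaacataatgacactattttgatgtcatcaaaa
Gbp5, chr3:142496684-142496933, plus strand: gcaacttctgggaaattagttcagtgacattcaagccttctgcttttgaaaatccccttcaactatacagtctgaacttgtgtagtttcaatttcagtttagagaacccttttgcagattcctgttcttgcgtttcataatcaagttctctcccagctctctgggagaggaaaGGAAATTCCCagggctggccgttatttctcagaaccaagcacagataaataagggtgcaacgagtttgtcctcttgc
The Sod2 match reads GGGGTTCCCC and begins 83 bases before the start; the position fits the consensus on either strand. That of Alpk1, GGGAAACTCC, begins 110 bases before it. The Gbp5 match begins 77 bases before the start and fits the consensus on the opposite strand. Such matches were about as frequent on both sides of the comparison. They were found for 9 of 61 higher genes with a promoter in the table (14.8%), 7 of 50 lower genes (14%) and 1074 of 8947 compared genes (12%), against 9.55% of all 27025 genes of the table. Among 40 named higher genes, 32 had a promoter there and 7 had a match. No match was found for Saa3, Marco, Gpr84, Marcksl1, Clec4e, Acod1, Il1b or Tnf. A match is only a string of letters, and its absence from this window says nothing of more distant sites.

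Of the remaining genes with the largest positive difference, several act at the cell surface or in metabolism. Lox, the lysyl oxidase that cross-links collagen, was at 0.337 RPKM in wild type against 3.77 RPKM in the knockout, on 23 and 274 reads. Gbgt1, a glycosyltransferase of the Forssman antigen, was at 3.78 and 15.4 RPKM, and the lipid phosphodiesterase gene Smpdl3b at 3.58 and 11.9 RPKM. Alpk1 was at 7.61 and 23.8 RPKM, a ratio of 3.13 (2.84 to 3.44). Surface proteins of the Ly6 family included Ly6i at 22.1 and 74.2 RPKM, Ly6c2, a mark of inflammatory monocytes, at 405 and 829 RPKM, and Ly6a, known as Sca-1, at 84.3 and 170 RPKM. This family was picked after its values were seen. It had 3 of 6 measured members higher, of which Ly6c2 and Ly6a lost the call under each rescaling, and Ly6g, a neutrophil protein, was at -0.42. Arg1, arginase, was at 1.46 and 5.34 RPKM on 33 and 128 reads.

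**Figure D2:**
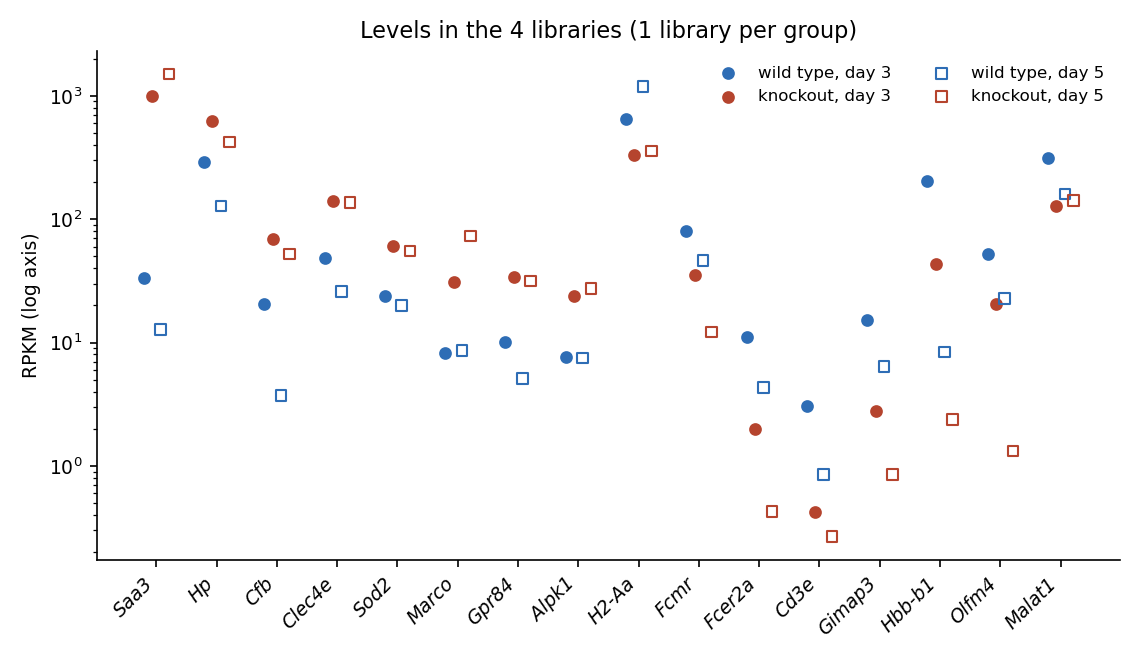
RPKM of 16 genes in the 4 libraries on a log axis, with wild type in blue, knockout in red, day 3 as filled circles and day 5 as open squares; each point is 1 library. From Saa3 to Alpk1 both knockout points lie above both wild-type points, and from H2-Aa to Gimap3 both lie below. The Malat1 points of the genotypes are apart at day 3 (315 and 128 RPKM) and close at day 5 (160 and 141 RPKM).

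Genes of class II antigen presentation lay below 0 for most members, few of them past the rule. Of 16 measured, 15 lay below 0, 3 were lower by the rule and the median was -0.79. Over all genes 66.6% lay above 0 and 0.882% were lower by the rule. The main chains H2-Aa (651 and 333 RPKM), H2-Ab1 (514 and 282 RPKM) and H2-Eb1 (361 and 188 RPKM) and the invariant chain Cd74 (1333 and 748 RPKM) lay between -0.96 and -0.83. H2-Oa, a chain of the H2-O protein that restrains peptide loading, was at 27.3 and 8.94 RPKM, a ratio of 0.327 (0.270 to 0.394). Ciita, the master activator of these genes, was at 7.22 and 3.92 RPKM. Rfx5 (-0.18) and Rfxank (0.09), factors of the class II promoter that most cells express, and the protease Ctss (0.00) were near 0. Class I presentation genes had a median of 0.11, negative under median ratio rescaling, with 0 of 23 past the rule.

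Dendritic cell marker lists had medians nearer to 0 at day 3 than the class II list. The cross-presenting list had 0 of 17 members past the rule and a median of -0.06. Among its lowest members were receptors typical of the subset, with Clec9a at 7.02 and 3.37 RPKM (-0.88), Xcr1 at 3.00 and 1.34 RPKM (-0.77) and Tlr11 at -0.68, whereas the regulator Irf8 was at 109 and 94.1 RPKM, Batf3 at -0.04 and Id2 at 0.19. For type 2 conventional dendritic cells the median was -0.12 with 1 of 15 lower, Cd4, a gene that T cells share, at 8.88 and 3.70 RPKM. Cd209a was at -0.70 and Clec10a at -0.50, and the integrin Itgam at -0.12. Plasmacytoid markers had a median of -0.24, with Siglech at -0.93 and Ccr9 at -0.70, and with the lineage factor Tcf4 at -0.15. In this list Ly6c2, which monocytes share, was the 1 of 27 that was higher, and 0 were lower.

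Neutrophil genes of late and early stages had medians on either side of 0. Late neutrophil genes, those of secondary and tertiary granules and of mature cells, were below 0 for 31 of 35, with a median of -0.49. Of the 35, 3 were lower and 0 higher. Over all genes 66.6% lay above 0 and 0.882% were lower. Olfm4, a granule glycoprotein, was at 52.1 RPKM in wild type against 20.3 RPKM in the knockout, a ratio of 0.390 (0.360 to 0.421). Asprv1, a protease, was at 29.2 and 12.4 RPKM, and the stefin Stfa2 at 6.04 and 1.75 RPKM. Lactoferrin (Ltf) was at -0.67, the receptor Csf3r at -0.77 and S100a9 at -0.56. The summed level of the 35 genes was 37410 RPKM in wild type against 26746 RPKM in the knockout. Genes of the earlier primary granules had 0 of 18 past the rule, 13 above 0 and 5 below, and a median of 0.17, close to that of all genes; 10 lay above 0 after median ratio rescaling, and the median turned negative when genes were centred by length. Prtn3 (0.94), Ctsg (0.70) and Mpo (0.32), granule enzymes made by promyelocytes, lay above 0, and Hdc (-0.57), which makes histamine, and Cebpe (-0.35), the factor of the later stage, below it.

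Monocyte and macrophage genes also went both ways. Of 43 measured, 5 were higher and 0 lower, against 0.976% and 0.882% of all genes. The median of 0.08 turned negative under all 3 rescalings. Besides Marco, Clec4e, Arg1 and Ly6c2, the orphan nuclear receptor Nr4a1 was higher, at 5.72 and 15.5 RPKM. Csf1r (0.67), Cx3cr1 (0.74), F13a1 (0.74) and Ccr2 (0.55), typical of blood monocytes and their precursors, lay above 0. Gpnmb (-0.80), C1qa (-0.71), Adgre1 (-0.48), which encodes F4/80, and Cd68 (-0.37), typical of mature macrophages, lay below 0. The macrophage receptor gene Marco went the other way, so these picked genes do not split the list by cell stage. In the whole list 25 lay above 0 and 18 below, where 66.6% of all genes lay above 0.

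Genes of mature lymphocytes and red cells were among the lowest in the knockout. The B cell list had 6 of 25 members lower and 1 higher, with a median of -0.11, where 0.882% of all genes were lower and 0.976% higher. The 6 are genes of mature B cells: Fcer2a, the low-affinity IgE receptor, at 11.1 and 2.01 RPKM, a ratio of 0.181 (0.138 to 0.235), the complement receptor Cr2 at 2.98 and 0.420 RPKM, the follicle-homing receptor Cxcr5 at 11.9 and 4.18 RPKM, the IgM receptor Fcmr at 80.7 and 35.0 RPKM, with Bank1 (-1.16) and Cd22 (-1.05). Other genes of the list were closer to 0, with Cd79a at -0.28 and Ms4a1, which mature B cells also express, at 0.01. Rag1, the recombinase of precursors, was the higher one at 8.69 and 19.2 RPKM (1.06, and under the rule after each rescaling), and Dntt (0.79) and Vpreb3 (0.70) also lay above 0. The chemokine receptor Ccr6, which mature B cells carry, was at 4.56 and 1.20 RPKM.

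T and NK cell genes were lower for 7 of 19 measured, with 0 higher and a median of -0.39, where 0.882% of all genes were lower. Cd3g was at 4.49 and 0.784 RPKM, Cd3e at 3.06 and 0.423 RPKM and Cd8b1 at 3.63 and 0.666 RPKM, all signalling or co-receptor chains of T cells. Each rests on between 68 and 82 reads in wild type and 10 to 16 in the knockout. Thy1, Tcf7, Il2rb and Cd4 complete the 7. All 8 Gimap genes, small GTPases that keep lymphocytes alive, lay below 0, with 4 lower and a median of -1.17, where 66.6% of all genes lay above 0. Gimap3 was at 15.3 and 2.76 RPKM, a ratio of 0.180 (0.143 to 0.225), Gimap4 at 17.3 and 4.80 RPKM and Gimap6 at 34.0 and 12.7 RPKM.

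Red cell genes were lower where they encode the last products of the lineage. Globin RNA, summed over 6 gene rows, was 514 RPKM in wild type against 108 RPKM in the knockout. Hbb-b1 was at 203 and 43.1 RPKM, a ratio of 0.213 (0.191 to 0.236), and Hba-a1 at 44.7 and 8.16 RPKM. Hbb-bs and Hba-a2, near-identical to these, had almost the same values and are no separate evidence. Hbb-b1 and Hbb-bs held 1950 and 1944 reads in wild type and 441 each in the knockout. The rows of such a pair thus appear to share reads, and the sum over 6 rows holds both rows of each pair. Alas2, which starts haem synthesis in red cells, was at 4.88 and 0.957 RPKM. The erythroid list had 6 of 16 measured members lower and a median of -0.30. Of the 6, 5 were globin rows, a count that includes the near-identical pairs. The transferrin receptor Tfrc, used by all dividing cells, was at 0.61. The cell types behind these marker lists are also part of any bulk difference. Levels were summed over the measured genes of each list. The sums were 868 RPKM in wild type against 768 RPKM in the knockout for 25 B cell genes and 141 and 112 RPKM for 19 T and NK cell genes. They were 589 and 192 RPKM for 16 erythroid genes, of which the globin rows made up 514 and 108 RPKM. The fall of the erythroid sum thus lay in its globin rows. For 43 monocyte and macrophage genes the sums were 11282 and 12867 RPKM. Among their defining genes, Vpreb2 and Car1 stood at 1 read in both day 3 libraries. What part of the other differences comes with these cells was not tested.

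At day 3 the mast cell and megakaryocyte lists had medians near 0, and the stem and progenitor list a higher one. Mast cell, basophil and eosinophil genes had a median of -0.08 with 2 of 23 higher and 0 lower, and the 2 were Ifitm1 (33.4 and 71.3 RPKM, under the rule after each rescaling) and Il6, which are not confined to these cells. The basophil protease Mcpt8 was at -0.33 and the eosinophil granule gene Prg2 at 0.02, while Mcpt4, Cma1, Tpsb2 and Tpsab1 stood at 1 read in both libraries. Megakaryocyte and platelet genes had 0 of 29 past the rule and a median of 0.03, negative under all 3 rescalings. Stem and progenitor genes had 3 of 25 higher, 21 above 0 (18 after median ratio rescaling) and a median of 0.29, where 66.6% of all genes lay above 0. Of the 3, Adgrl4 and Ly6a were under the rule after median ratio rescaling, and Egfl7 and Ly6a when genes were centred by length. The endothelial and stem cell gene Egfl7 was at 1.56 and 4.57 RPKM and the adhesion receptor Adgrl4 at 2.89 and 7.40 RPKM. Cd34 (0.73) and Sox4 (0.73) lay above 0, and Kit (0.22) and Meis1 (-0.08) nearer to the all-gene median.

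**Figure D3:**
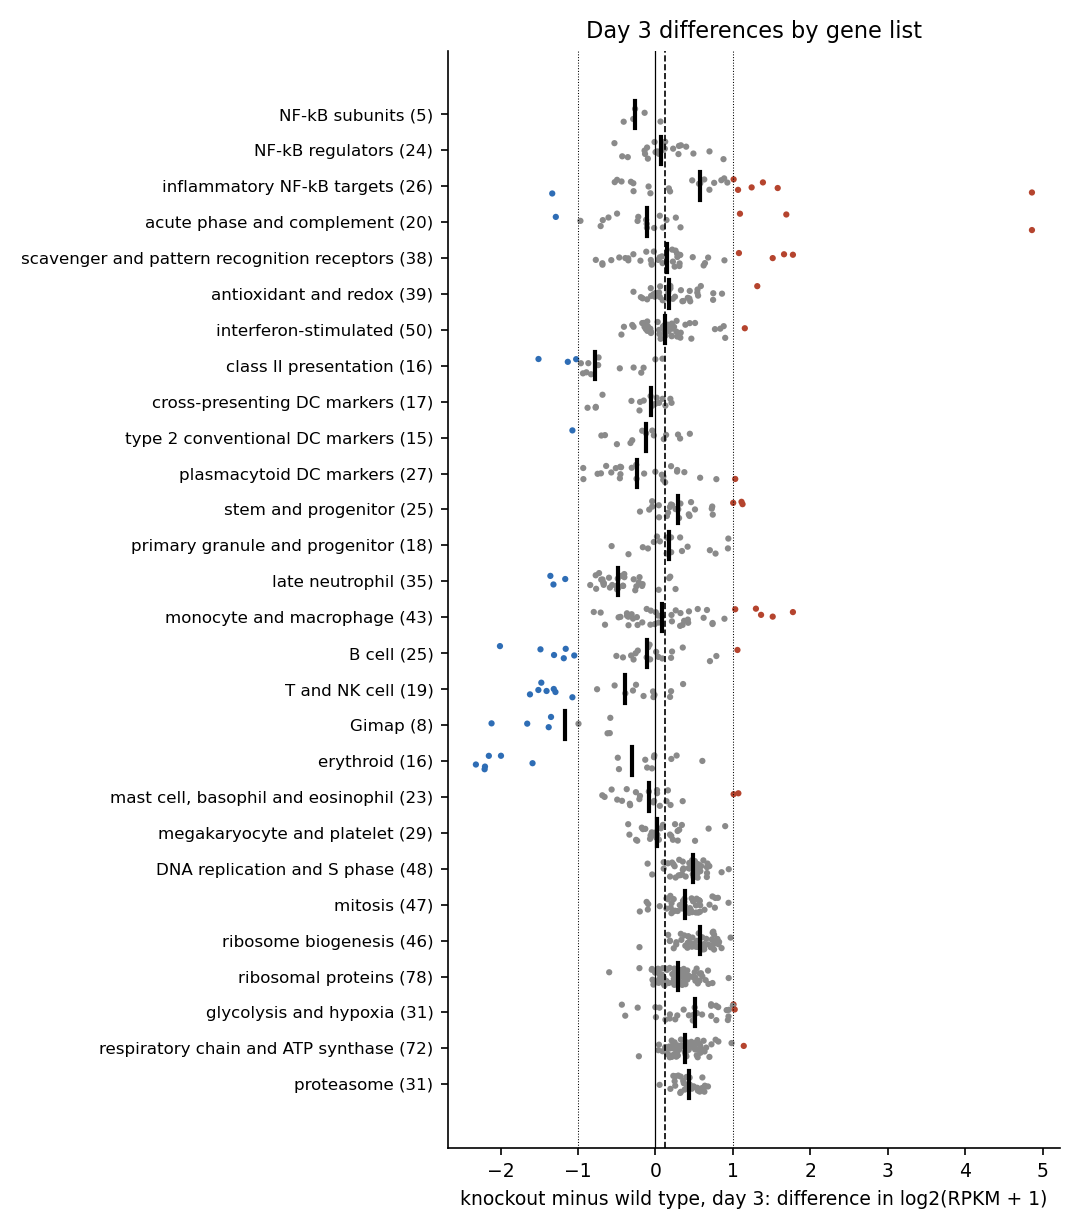
Knockout minus wild type at day 3, as a difference in log2(RPKM + 1), for every measured member of 28 gene lists, with the number of members in brackets. Each point is a gene, the thick bar is the list median, the dashed line is the median of all genes (0.13) and the dotted lines mark the size rule. Class II, late neutrophil, T and NK cell and Gimap medians lie left of 0, and the growth lists at the bottom lie right of the dashed line with few members past 1. The medians of the regulator, scavenger, interferon, monocyte and megakaryocyte lists turn negative under median ratio rescaling.

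Genes of growth lay mostly above 0 without passing the rule. Over all 11786 genes, 66.6% lay above 0 as deposited and 47.7% after median ratio rescaling, and the counts below are to be read against these shares. For ribosome biogenesis 45 of 46 genes lay above 0 and the median was 0.57, with 0 past the rule; examples are the ribosome assembly factor Mrto4 at 6.54 and 13.8 RPKM and the rRNA methyltransferase Fbl at 26.4 and 47.4 RPKM. For DNA replication 46 of 48 lay above 0 with a median of 0.49, among them the clamp loader subunit Rfc4 at 10.7 and 21.5 RPKM and the helicase subunit Mcm3 at 49.5 and 79.6 RPKM. Mitosis genes had 43 of 47 above 0 and a median of 0.38. The cyclin Ccnb1 was at 8.32 and 16.9 RPKM, but the proliferation marker Mki67, a long transcript, was at -0.20. The Myc network list differed from these, with 4 of 11 measured genes above 0, 7 below and a median of -0.06. Myc, a driver of growth genes, was its highest member at 21.4 and 35.6 RPKM (0.71). The related gene Mycl was its lowest at 3.77 and 1.57 RPKM (-0.89), and the Myc antagonist Mxd1 was at 73.2 and 48.9 RPKM (-0.57).

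Genes for the supply of amino acids and energy also lay mostly above 0. All 20 aminoacyl tRNA synthetase genes (median 0.42) and all 31 proteasome genes (median 0.43) lay above 0, with 0 past the rule in either list. Of 21 measured genes for serine and asparagine synthesis and other ATF4 targets 3 were higher: Shmt1, which passes the carbon of serine to folate, at 6.00 and 13.5 RPKM, the amino acid transporter Slc7a5 at 12.6 and 26.8 RPKM and the stress protein Nupr1 at 12.9 and 27.3 RPKM. All 3 were under the rule after each rescaling, and Ddit3, a stress gene of the same pathway, was at -0.17. Glycolysis and hypoxia genes had a median of 0.51 with 27 of 31 above 0. Pdk1, which blocks entry of pyruvate into mitochondria, was at 6.67 and 14.6 RPKM, the hydroxylase Egln3 at 8.89 and 18.9 RPKM, and both were again under the rule after each rescaling. Lactate dehydrogenase Ldha was at 129 and 260 RPKM. Slc2a3 (-0.43) and Hk3 (-0.39), glucose transporter and hexokinase of neutrophils, lay below 0. For the respiratory chain and ATP synthase 71 of 72 lay above 0 with a median of 0.38, and cytochrome c (Cycs) was the 1 past the rule, at 3.53 and 8.99 RPKM. Ribosomal protein genes had 70 of 78 above 0 and a median of 0.30, or 54 above 0 and 0.13 after median ratio rescaling. Apart from the Myc network, the medians of these growth and supply lists were positive under each rescaling.

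Gene length moved with the day 3 difference. The median difference was 0.23 for 914 genes of up to 1000 bases and -0.17 for 199 genes of over 10000 bases, of which 71.4% lay below 0. At day 5 the same groups stood at 0.08 and 0.02. Across 11037 genes, Spearman's rho between length and difference was -0.17 for the day 3 pair of libraries and -0.06 for the day 5 pair, as a description. Malat1, a nuclear RNA without a protein, was at 315 RPKM in wild type against 128 RPKM in the knockout, on 33564 and 14480 reads, against 160 and 141 RPKM at day 5. The cytoskeletal linker gene Macf1 was at 22.05 and 10.5 RPKM and the myosin gene Myo5a at 29.1 and 12.02 RPKM. All 5 Kmt2 genes, histone methyltransferases with long transcripts, were below 0, with a day 3 median of -0.69 and a day 5 median of 0.02. Malat1, Macf1, Myo5a and the Kmt2 genes were chosen after their values were seen. Centring each length group on its own median left the growth lists other than the Myc network above 0. Medians were 0.43 for ribosome biogenesis, 0.32 for DNA replication, 0.19 for the respiratory chain and 0.11 for ribosomal proteins. Median ratio rescaling, which has no length term, gave nearly the same values, at 0.43, 0.33, 0.21 and 0.13. What part of any difference goes with length was not tested.

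**Figure D4:**
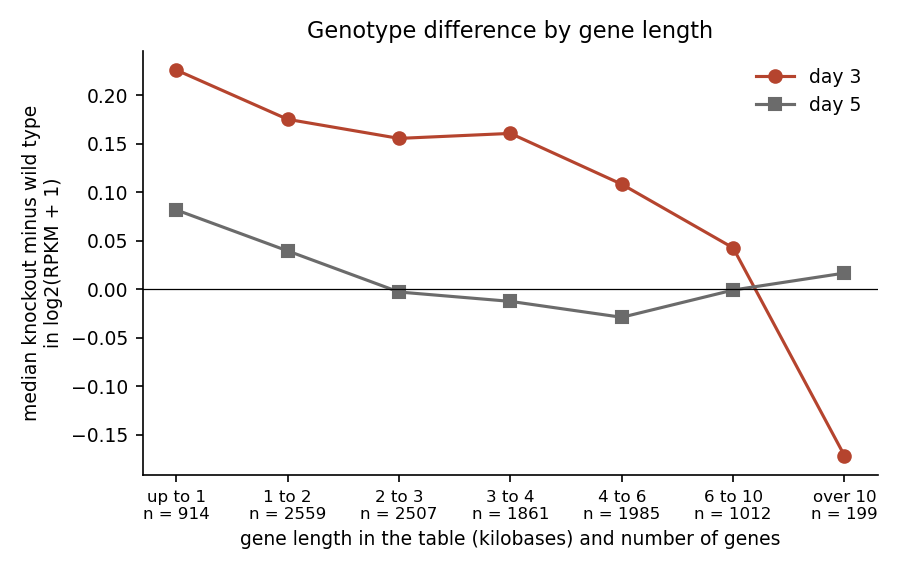
Median difference between knockout and wild type in log2(RPKM + 1), y axis, for 7 groups of gene length, x axis, at day 3 (red circles) and day 5 (grey squares). The day 3 medians go from 0.23 in the shortest group to -0.17 in the longest, and the day 5 medians stay between -0.03 and 0.08.

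Most day 3 differences had the same direction at day 5. Of all 11125 genes with enough reads, 50.7% were above 0 at day 5 and 49.3% below. Of the 75 higher genes 67 were above 0 at day 5 and 33 (44%) were past the rule again, which is 34.7% of the 95 genes higher at day 5 (0.854% of 11125). Of the 66 lower genes 61 were below 0 and 32 (48.5%) past the rule, which is 9.67% of the 331 genes lower at day 5 (2.98%). The median day 5 difference was 0.90 for the higher and -0.96 for the lower genes, against 0.01 for all genes with enough reads. Inflammatory and receptor genes went both ways between the days. Saa3 was at 6.78 at day 5 against 4.86 at day 3, Cfb at 3.50 against 1.69, Marco at 2.95 against 1.78 and Gpr84 at 2.42 against 1.66, whereas Tlr2 was at 0.96 against 1.08, Il18 at 1.02 against 1.20, Nr4a1 at 0.93 against 1.30 and Il6 at 0.56 against 1.01. The median of the inflammatory target list was 0.53 at day 5 against 0.57, and that of the scavenger and pattern recognition receptors 0.07 against 0.15. Lymphocyte genes were mixed too. Gimap3 was at -1.99, Fcer2a at -1.89 and Cd3g at -1.55 at day 5, near their day 3 values. By comparison Cd3e was at -0.55 against -1.51, Thy1 at -0.58 against -1.41 and Tcf7 at -0.64 against -1.31. At day 5 Cd3e rested on 20 and 6 reads, Thy1 on 39 and 16 and Cd3g on 35 and 1, low levels at which the scale understates differences. Several lists stood close to 0 or moderately below it at day 3 and far below it at day 5: the cross-presenting list median was -1.27 at day 5 against -0.06 at day 3, the late neutrophil median -1.80 against -0.49, the mast cell, basophil and eosinophil median -1.16 against -0.08 and the megakaryocyte median -0.95 against 0.03. Whether any of these differences changed between the days was not tested.

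**Figure D5:**
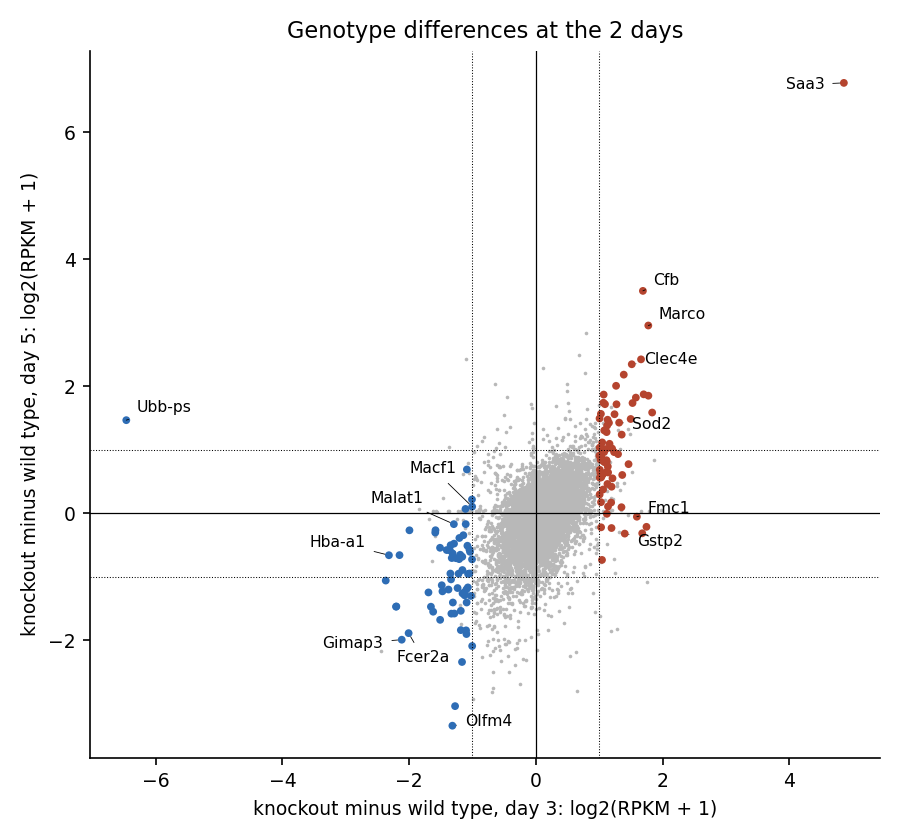
Difference between knockout and wild type in log2(RPKM + 1) at day 3 (x axis) and day 5 (y axis) for every compared gene, with the 75 higher and 66 lower genes of day 3 in red and blue. Dotted lines mark the size rule. Of the coloured genes 67 red ones lie above 0 and 61 blue ones below 0 at day 5, with Ubb-ps alone at top left.

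A small set of genes differed at day 3 and less, hardly or inversely at day 5. Fmc1, an assembly factor of mitochondrial ATP synthase, was at 4.61 and 15.9 RPKM at day 3 and at 9.85 and 9.42 RPKM at day 5. Gstp2, a glutathione transferase, was at 0.959 and 4.18 RPKM at day 3, on 11 and 51 reads, and at 1.98 and 1.38 RPKM at day 5. The ubiquitin-conjugating enzyme Ube2t differed by 1.19 and -0.24, the ficolin Fcna by 1.35 and 0.09 and Hyi by 1.03 and -0.22, the last under the rule after each rescaling. Among lower genes, Hba-a1 was at -2.32 at day 3 and -0.66 at day 5. Its day 5 levels were low in both genotypes (2.89 and 1.45 RPKM), with a ratio of 0.503 (0.299 to 0.826). Globin genes did not all move alike. Hbb-b1, more abundant, stayed past the rule with -1.47 at day 5 (8.36 and 2.37 RPKM), a ratio of 0.283 (0.170 to 0.453). Hbb-bt went from -2.00 to -0.27, with a day 5 ratio of 0.720 (0.302 to 1.65). Mascrna, a small RNA cut from the end of Malat1 and so sharing its sequence, was at 30.5 and 13.8 RPKM at day 3 on 27 and 13 reads. By contrast the zinc transporter Slc39a4, at 5.87 RPKM in wild type against 0.330 RPKM in the knockout (268 and 16 reads), and the peptide transporter Slc15a2, at 2.49 and 0.0770 RPKM (152 and 5 reads), were lower at both days, with -1.06 and -1.25 at day 5.

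Genes next to Nfkb1 on its chromosome were also examined. Among the 50 compared genes on either side, in RefSeq order and with at least 20 reads, 3 of 100 were higher (Alpk1, Gbp5 and Adgrl4) and 1 was lower (Bank1), against 0.674% and 0.593% of all. Their median was 0.26 at day 3 and 0.09 at day 5. At day 3, 83 of them lay above 0, where the share was 66.6% over all 11786 genes, a set without the read minimum.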

How the data were processed

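Polyadenylated RNA was extracted with trizol and made into libraries (Kapa mRNA HyperPrep), per the labels' protocols. HISAT2, SAMtools and the mm9 build were used, per the submitters' processing notes; how reads were counted, on which annotation, with which strand setting and versions, is not given in the sources used here. RPKM values made by the authors were deposited for 26026 genes by RefSeq ID and symbol, 1 column per library, matched to the labels by genotype and day. No value is 0. The values are whole multiples of what 1 read is worth, so totals, whole reads and gene lengths were recovered for all genes (tolerance 0.003 reads); 711 lengths were set from a reference length, at hand for 22187 genes, and elsewhere reads may be too low by a whole factor. The lowest value is that of 1 read, where 7985 genes stood in every library; either genes without reads were set there or 1 read was added throughout, which cannot be told from the table and would make low read counts 1 too high.

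Computed here, with numpy 2.4.6, pandas 2.3.3 and scipy 1.17.1: differences with a pseudocount of 1 RPKM, a filter of a mean of at least 1 RPKM, a minimum of 20 reads on average where stated, and a size rule of 1, with no test. Intervals at 95% treat reads as independent molecules, which reads without molecular identifiers are not. The procedure was tested on simulated data. The members and the 49 gene lists (8 of 1336 entries not matched) were chosen with earlier results of these data known. Named are the NF-kB genes, Sod2 and Flt3, the 15 largest differences each way, the 5 each way that moved most by day 5, up to 4 genes per list past the rule (or its largest), and list members by role; sex-linked genes, receptor segments, miRNAs, snoRNAs and unnamed predicted genes were not named. Alternatives were pseudocounts of 0.1 and 5, other filters, 3 rescalings and a 1.5-fold rule.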

Additional observations from a re-analysis of the deposited data

Results flagged for a closer look

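Ubb-ps, a processed copy of the polyubiquitin gene Ubb, was past the size rule in opposite directions at the 2 days, with a difference of -6.47 at day 3 and 1.46 at day 5. The difference between the days was not tested. It held 1685 reads in wild type and 9 in the knockout at day 3, and 11 and 48 reads at day 5. Ubb, whose sequence it shares, held 3866 and 4729 reads at day 3 and 5603 and 4261 at day 5. Reads of the pair together came to 364 and 292 per 1000000 library reads at day 3 and to 348 and 280 at day 5. The authors' counting could split reads between such copies, so its values are uncertain.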

How the results depend on the processing

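Counts here are higher and lower genes, first over all compared genes (115 and 104 as reported) and then over those with at least 20 reads (75 and 66). A pseudocount of 0.1 RPKM gave 228 and 221, then 154 and 118, with 128 past the rule in the same direction at day 5 in place of 65, and one of 5 RPKM gave 27 and 20, then 23 and 17, with 21. A mean of at least 5 RPKM gave 70 and 40, with 34 lower genes with enough reads, and a minimum of 100 reads left 40 lower. Median ratio rescaling left 70 higher genes, 39 with enough reads; the same sum of RPKM left 48 and the same reads in listed genes 47. A 1.5-fold rule gave 842 and 396, then 751 and 278, with 434 shared. Centring by gene length, chosen after seeing the data, gave 55 and 168, then 33 higher. In all these settings, the 73 named genes past the rule kept their sign wherever they remained measured; 30 stayed past it with a pseudocount of 5 RPKM and 58 under median ratio rescaling. Of 49 list medians, 37 kept their sign under median ratio rescaling. No paired analysis was possible because there is 1 library per group, and for the same reason no library could be left out. The single library per genotype limits every comparison.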

Other observations

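Protein import into mitochondria was not among the fixed lists; its genes were chosen after their values were seen. Of 24 measured Tomm and Timm genes 23 lay above 0 at day 3, with a median of 0.53 (0.38 after median ratio rescaling, and 0.29 at day 5), and 2 were higher, Tomm5 at 6.12 and 15.5 RPKM and Timm10 at 4.43 and 10.3 RPKM in wild type and knockout. Chchd4, which folds small proteins of the space between the membranes, was at 7.90 and 18.3 RPKM. Other higher genes outside the lists were the NAD-consuming enzyme gene Cd38 (14.01 and 35.1 RPKM, 2.00 at day 5), the clotting factor gene F10 (24.5 and 60.6 RPKM) and the insulin-degrading enzyme gene Ide (20.7 and 46.8 RPKM). Lower genes outside the lists included Cd101 (27.3 and 13.1 RPKM), a protein of mature neutrophils and other myeloid cells that stood at -2.09 at day 5, and Jchain (22.8 and 10.9 RPKM), the joining chain of secreted IgM and IgA.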
